A study of Mus musculus with 4 samples.

Results

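The 10 genes described here encode transcription factors of the lateral plate mesoderm and the heart: Hand1, Hand2, Gata4, Gata6, Foxf1, Tbx3, Osr1, Nkx2-5, Tbx5 and Tbx20. They were chosen by symbol, with earlier results of these data known. All 10 were found among the 24831 genes listed in each of 4 RNA-seq libraries of mouse somitic gastruloids. Such gastruloids are aggregates of embryonic stem cells that form presomitic tissue and somites in culture. All libraries came from 1 line of E14 embryonic stem cells with a triple reporter and an HA and FKBP12F36V degron tag on the endogenous Zeb2 gene, so the untreated gastruloids carried the tagged allele too. All gastruloids were started from 300 sorted cells per well, were given the WNT pathway agonist CHIR99021 at 3 μM from 48 h and were moved into 10% Matrigel at 96 h. The dTAG-13 group (2 libraries) received 100 nM dTAG-13, a small molecule that sends the tagged protein for degradation, at 72 h and again at 96 h. The other group (2 libraries) is labelled untreated, and the protocol names DMSO as the control. The libraries of each group are numbered 1 and 2, and the labels do not say what the number stands for. Nor do they name separate cultures as the source of the replicates, and the p-values thus refer to a spread among libraries that may be technical.

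The lateral plate is the mesoderm lateral to the somites and the intermediate mesoderm, and it gives rise to the heart, the limb buds, the body wall and the wall of the gut. BMP signalling is known to favour lateral plate over somitic fate. GATA4, GATA6, NKX2-5, TBX5, TBX20 and the HAND proteins act together in heart formation, while FOXF1 marks the splanchnic layer and OSR1 marks both lateral plate and intermediate mesoderm. Several of these genes are also used elsewhere: Gata4 and Gata6 in endoderm, and Tbx3 in pluripotent stem cells.

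Reads counted in genes came to between 11491330 and 12716172 per library. The share of reads outside genes was 35.7% in untreated replicate 1 and 24.1% to 29.2% in the other 3 libraries, an ordering that does not follow the replicate number. Zeb2 mRNA lay between 98.3 and 164 CPM (counts scaled to the TMM-adjusted library size), and since dTAG-13 acts on the protein this level does not check the labels. Markers of the labelled tissue were present: paraxial mesoderm genes summed to 261 to 580 CPM in the 4 libraries, with Tbx6 at 7.30 to 19.5 CPM and Meox1 at 37.8 to 168 CPM. Heart muscle genes were unevenly detected. Ttn, which encodes titin, was at 54.7 and 8.90 CPM in untreated replicates 1 and 2 and at 32.8 and 17.7 CPM in dTAG-13 replicates 1 and 2, and the calcium channel gene Ryr2 lay between 4.18 and 13.3 CPM. By contrast Tnnt2, a troponin of heart muscle, had 0.0890 to 1.13 CPM, Myl2, a myosin light chain of the ventricle, had 0.0890 to 0.764 CPM, and Nppa, Nppb and Pln had at most 1 count in any library.

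Nkx2-5, a homeobox gene of cardiac progenitors, and Tbx5, a T-box gene of the heart and forelimb field, were close to absent at this depth. Nkx2-5 had 2 and 1 counts in untreated replicates 1 and 2 and 5 and 1 counts with dTAG-13. Tbx5 had 4 and 3 counts untreated and 4 and 3 counts with dTAG-13. Neither had enough reads for a test, and no difference in them was detectable. The other 8 genes were tested among 13602 genes kept by the filter on low counts. The cardiac label was thus met in part: Tbx20, with 209 and 176 counts in the number 1 libraries, was well detected there, and Nkx2-5 and Tbx5 were at the edge of detection in all 4 libraries.

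The main difference among the 8 tested genes lay between the replicate numbers. Gata4, Gata6, Hand1, Hand2, Foxf1, Osr1 and Tbx20 were all lower in the libraries numbered 2, by 3.67-fold to 15.96-fold, while Tbx3 had nearly the same level in both numbers. In edgeR's quasi-likelihood test of number 2 against number 1 with the group as a further term, 7 of 8 passed an adjusted p of 0.05, all lower in number 2. Of all genes tested 12.7% passed, 7.51% lower and 5.2% higher. In the same 7 genes both number 2 libraries lay below both number 1 libraries, which was the case for 24.9% of all genes, while 23.1% had both number 2 libraries above both number 1 libraries. The median log2 fold change of the 8 genes was -2.02, against 0.00377 over all genes tested. The set was chosen with earlier results of these data known. Its contrasts with all genes are thus a description and no independent evidence that the set stands apart. In bulk libraries such as these, fewer cells of a type and less RNA per cell cannot be told apart.

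**Figure D1:**
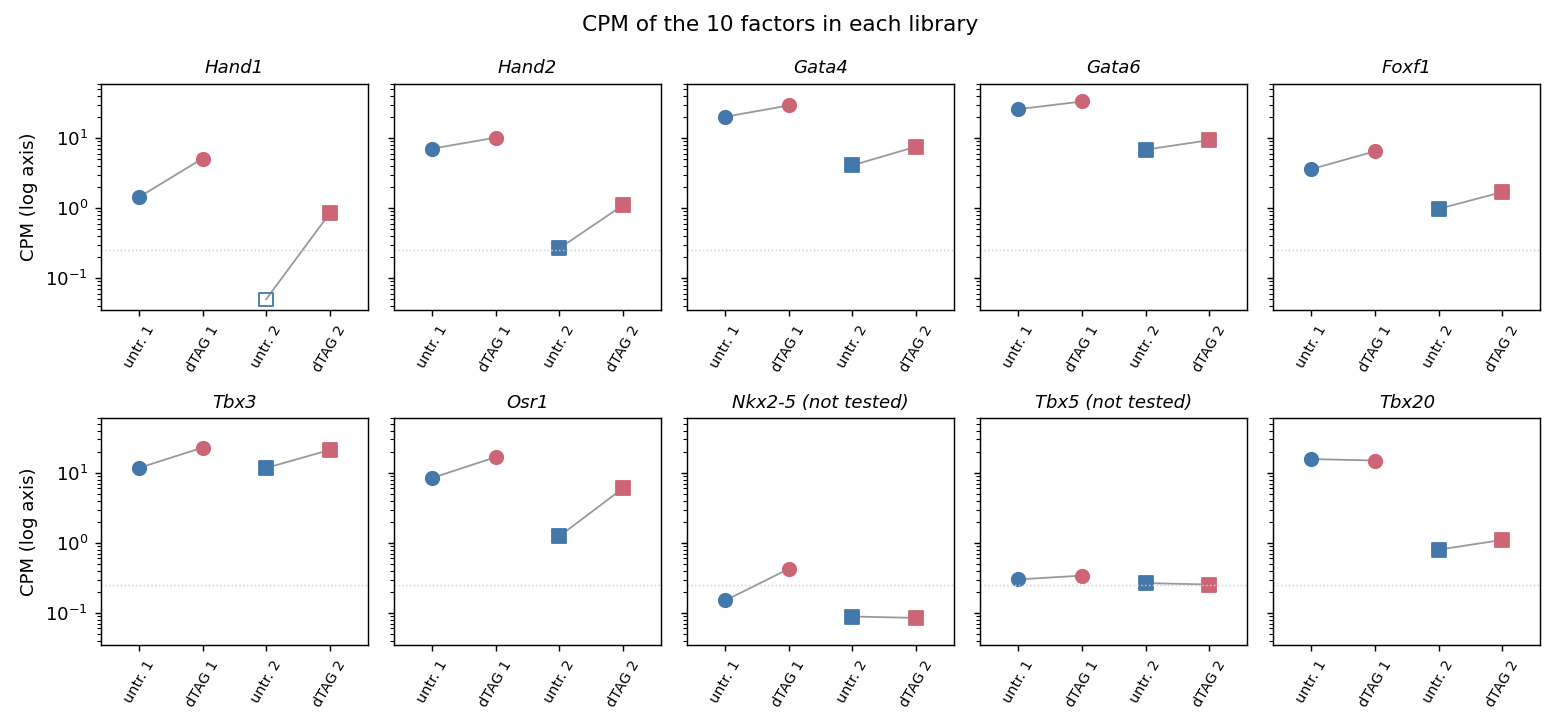
CPM of each of the 10 genes (log axis) in the 4 libraries, with circles for number 1, squares for number 2, blue for untreated and red for dTAG-13. Grey lines join the libraries of a number, the dotted line is the level of 3 counts, and the open square for Hand1 is a count of 0 placed near the foot of the axis. The squares sit below the circles in 7 of the 8 tested genes, and in Tbx3 the red symbols sit above the blue ones.

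Among the GATA zinc finger genes, Gata4 (chromosome 14, 63198914 to 63271712, build GRCm38.p6, as for the genes below) had 20.2 and 4.09 CPM in untreated replicates 1 and 2 and 29.3 and 7.56 CPM in dTAG-13 replicates 1 and 2. Both number 1 libraries were well above both number 2 libraries. The log2 fold change of number 2 against number 1 was -2.11 ± 0.22 (SE, adjusted p = 8.59e-20 by edgeR). Gata6 (chromosome 18, 11052510 to 11085636) had 25.9 and 6.85 CPM without and 33.4 and 9.34 CPM with dTAG-13. Its log2 fold change between the numbers was -1.87 ± 0.20 (adjusted p = 4.51e-19), close to that of Gata4, and both genes had the same order of the 4 libraries. Hand1, Hand2, Foxf1 and Osr1 had this order too.

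The HAND genes encode basic helix-loop-helix factors, and both had few reads in number 2. Hand2 (chromosome 8, 57320983 to 57324517) was at 7.08 and 0.267 CPM in untreated replicates 1 and 2, where the second value is 3 counts, and at 10.2 and 1.10 CPM with dTAG-13. The untreated ratio of number 1 to number 2 was 26.5 (95% interval 8.80 to 131, exact binomial on the 2 counts), and the dTAG-13 ratio was 9.20 (5.18 to 17.8). These intervals hold counting error alone and no spread between libraries. PCR copies of a molecule were not marked, so the intervals may be too narrow even for counting error. The log2 fold change was -3.67 ± 0.40 (adjusted p = 7.56e-18). Hand1 (chromosome 11, 57828713 to 57832147) had 19 and 0 counts in untreated replicates 1 and 2 and 60 and 10 counts with dTAG-13, or 1.43, 0, 5.12 and 0.849 CPM. Against a level of 3 counts in untreated replicate 2, set in place of its count of 0, untreated replicate 1 was 5.36-fold higher. This value leaves out the counting error of the 19 counts and is not a lower bound. Between the dTAG-13 libraries the ratio was 6.03 (3.06 to 13.2), and the fitted log2 fold change was -3.01 ± 0.53 (adjusted p = 4.45e-07).

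Foxf1, a forkhead gene of the splanchnic mesoderm (chromosome 8, 121084386 to 121088154), was at 3.62 and 0.979 CPM without and at 6.48 and 1.70 CPM with dTAG-13. Its ratios of number 1 to number 2 were alike in both groups, 3.69 untreated and 3.82 with dTAG-13 (log2 fold change -1.90 ± 0.39, adjusted p = 2.16e-05). Osr1, a zinc finger gene (chromosome 12, 9574442 to 9581500), had 8.44 and 1.25 CPM without and 16.8 and 6.03 CPM with dTAG-13. The ratio of number 1 to number 2 was 6.77 untreated (3.87 to 12.8) and 2.79 with dTAG-13 (2.11 to 3.71), and the log2 fold change over both groups was -1.93 ± 0.28 (adjusted p = 7.54e-10). Whether the difference between numbers depended on the treatment was not tested, because no residual degree of freedom is left for it.

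The T-box genes went separate ways. Tbx20, a repressor and activator in the developing heart (chromosome 9, 24720812 to 24774303), was at 15.7 and 0.801 CPM without and at 15.01 and 1.10 CPM with dTAG-13. Its estimate between numbers was the largest of the 8 genes over all 4 libraries, -4.00 ± 0.33 on the log2 scale (adjusted p = 5.59e-30), and 19 of the 13602 genes tested had a lower value. Tbx3, which acts in the sinus node and limb as well as in stem cells (chromosome 5, 119670534 to 119684724), was at 11.8 and 11.7 CPM without and at 22.9 and 21.3 CPM with dTAG-13. Its log2 fold change between the numbers was -0.06 ± 0.20 (adjusted p = 0.922), with ratios of number 1 to number 2 of 1.00 untreated (0.788 to 1.27) and 1.08 with dTAG-13 (0.903 to 1.28).

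Hand2 and Tbx20, the 2 genes with the largest difference between numbers, are among the 3 of 10 with a promoter in the RefSeq table of GRCm38.p6 (the third is Nkx2-5). Their 250 bases before the start of transcription are shown because these genes had the largest estimates between the numbers. Capitals mark matches to the motifs searched on both strands, which were CACCTG (the E-box bound by ZEB proteins), AGATAA for GATA factors, AGGTGT for T-box factors and AAGTG for NKX factors.
Hand2, chr8:57320733-57320982, plus strand: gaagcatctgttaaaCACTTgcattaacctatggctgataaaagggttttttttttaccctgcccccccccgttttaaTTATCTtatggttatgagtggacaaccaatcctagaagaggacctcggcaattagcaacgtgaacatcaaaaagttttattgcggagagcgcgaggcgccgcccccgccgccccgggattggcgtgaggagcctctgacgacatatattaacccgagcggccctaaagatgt
Tbx20, chr9:24774304-24774553, minus strand: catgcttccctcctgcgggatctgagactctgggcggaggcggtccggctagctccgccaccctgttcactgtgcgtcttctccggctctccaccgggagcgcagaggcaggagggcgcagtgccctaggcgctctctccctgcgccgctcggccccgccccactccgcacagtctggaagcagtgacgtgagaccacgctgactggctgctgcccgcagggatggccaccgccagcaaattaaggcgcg

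The Hand2 window held 1 GATA match, which begins at position -172 from the start and lies on the reverse strand as TTATCT, and 1 NKX match at -235, also on the reverse strand as CACTT. The Tbx20 window held no match to any of the 4 motifs. Over the 32851 promoter windows of the same length in the table, 9.99% held the GATA letters, 40.7% the NKX letters, 11.8% the T-box letters and 17.2% the ZEB letters. The Tbx20 window was richer in G and C, at 68.8% against 49.2% for Hand2. A match describes letters in this window and is not a binding site, and the T-box and ZEB letters can overlap in a run such as CAGGTGT.

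**Figure D2:**
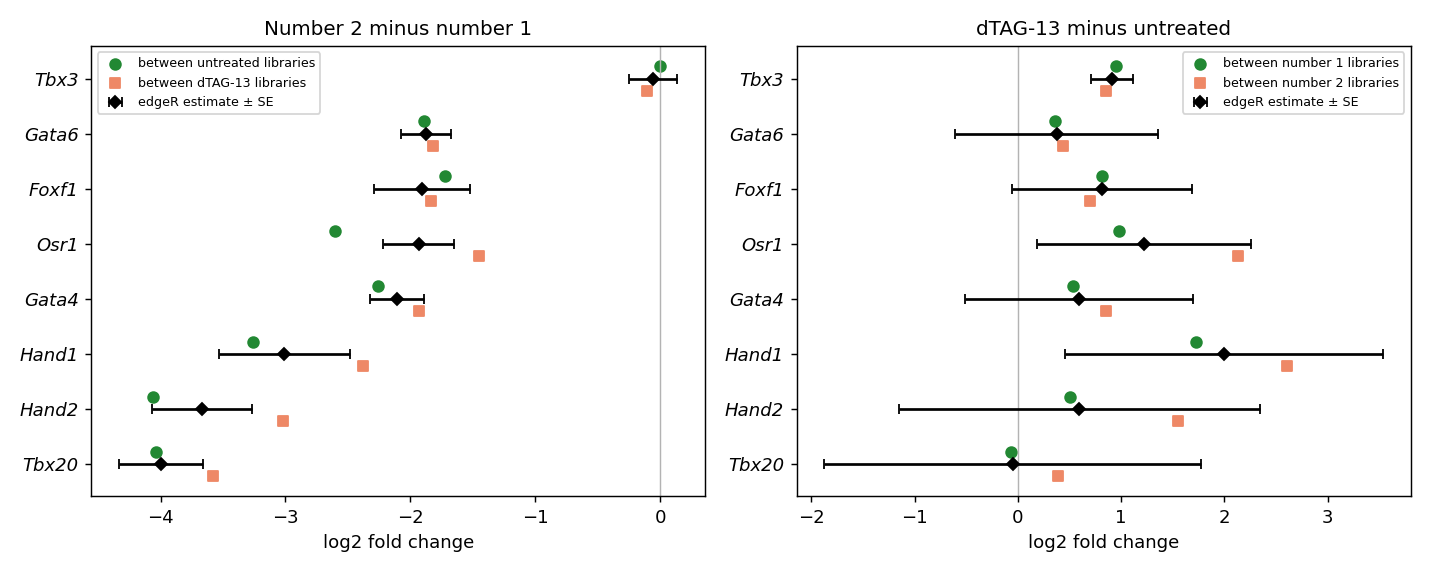
Log2 fold changes of the 8 tested genes between replicate numbers (left) and between dTAG-13 and untreated (right). Black diamonds with bars are edgeR estimates ± SE, circles are differences between the untreated libraries (left) or the number 1 libraries (right), and squares between the dTAG-13 libraries (left) or the number 2 libraries (right). On the left 7 genes lie between -4.00 and -1.87, and on the right the bars of Tbx3 are the shortest.

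Beside these differences, 11 of 12 endothelial markers were lower in number 2 at an adjusted p of 0.05, among them Kdr, a VEGF receptor (103 and 12.8 CPM untreated, 80.4 and 15.5 CPM with dTAG-13), and the vascular cadherin gene Cdh5 (16.6 and 2.58 CPM untreated, 12.5 and 1.19 CPM with dTAG-13). Their summed level was 226 and 63.5 CPM in untreated replicates 1 and 2 and 174 and 67.8 CPM with dTAG-13. Of 9 extraembryonic endoderm markers tested, 7 were lower, with sums of 857 and 665 CPM without and 1008 and 714 CPM with dTAG-13. Most of these sums came from matrix genes of many tissues, such as Col4a1, Lamb1 and Sparc (283, 231 and 119 CPM in untreated replicate 1). Amn had 2 to 6 counts per library, so the sums do not measure extraembryonic endoderm. Of 15 endoderm markers tested, 4 were lower and 2 higher; their sums were 587 and 514 CPM without and 774 and 884 CPM with dTAG-13, and Afp was at 0 in every library. Neural crest markers had 2 lower and 1 higher of 6 tested, with Foxd3 at 0 in every library and sums of 70.4 to 146 CPM. Pluripotency markers had 6 of 14 higher and 0 lower, with sums of 450 and 578 CPM without and 584 and 824 CPM with dTAG-13. The part of these cell types in the levels of the 8 genes was not tested.

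The other genes of the lateral plate, taken from a list that does not hold the 10, differed between the numbers in the same direction. That list, like the other further lists, was also chosen with earlier results of these data known. Of 15 tested, 12 were lower in number 2 and 1 was higher, with a median log2 fold change of -1.85. This list shares Gata3 and Wt1 with the intermediate mesoderm list and Isl1 and Tbx2 with the list of cardiac progenitor factors. It also shares Msx1, Msx2 and Bmper with the BMP list, so the counts of these lists are not independent. Gata3, Prrx2, a homeobox gene of lateral plate and limb mesenchyme, and Nr2f2, an orphan nuclear receptor gene, had log2 fold changes of -2.79 ± 0.23, -2.17 ± 0.19 and -1.95 ± 0.18. The member that was higher was Msx1, a BMP-responsive homeobox gene, with 18.1 and 35.1 CPM without and 41.5 and 106 CPM with dTAG-13. Intermediate mesoderm genes, a list that includes genes of the forming kidney, had 9 of 10 lower and a median of -2.12. Pax8 went from 18.2 to 1.16 CPM without and from 50.3 to 2.89 CPM with dTAG-13 between numbers 1 and 2 (log2 fold change -4.06 ± 0.25), and Pax2 and Lhx1 had values of -2.76 ± 0.21 and -1.78 ± 0.14.

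Other transcription factors of cardiac progenitors had 11 of 19 lower in number 2 and 1 higher, with a median of -1.13. Isl1, the marker of the second heart field, was at 11.8 and 1.42 CPM without and at 20.5 and 2.63 CPM with dTAG-13, while Mef2c, a MADS-box gene, changed by a log2 value of -2.93 ± 0.26 and Myocd, the coactivator of smooth and heart muscle genes, one of -2.20 ± 0.21. Of 17 heart muscle genes tested 9 were lower and 0 higher, with a median of -1.15. Myl7, the atrial myosin light chain, was at 9.57 and 1.33 CPM without and at 8.19 and 1.02 CPM with dTAG-13. Atp2a2, a calcium pump of many tissues, made up most of the summed level of that list. Without it the 22 other genes summed to 160 and 70.6 CPM without and to 129 and 76.0 CPM with dTAG-13. BMP targets had 8 of 13 lower and 2 higher, with a median of -0.72.

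Paraxial mesoderm markers had 5 of 15 lower and 1 higher in number 2, with 12 of 15 estimates below 0 and a median of -0.17. Neural tube markers had 1 of 10 lower and 3 higher with a median of 0.35. Sox2, a neural and pluripotency factor, was at 104 and 204 CPM without and at 95.6 and 139 CPM with dTAG-13.

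**Figure D3:**
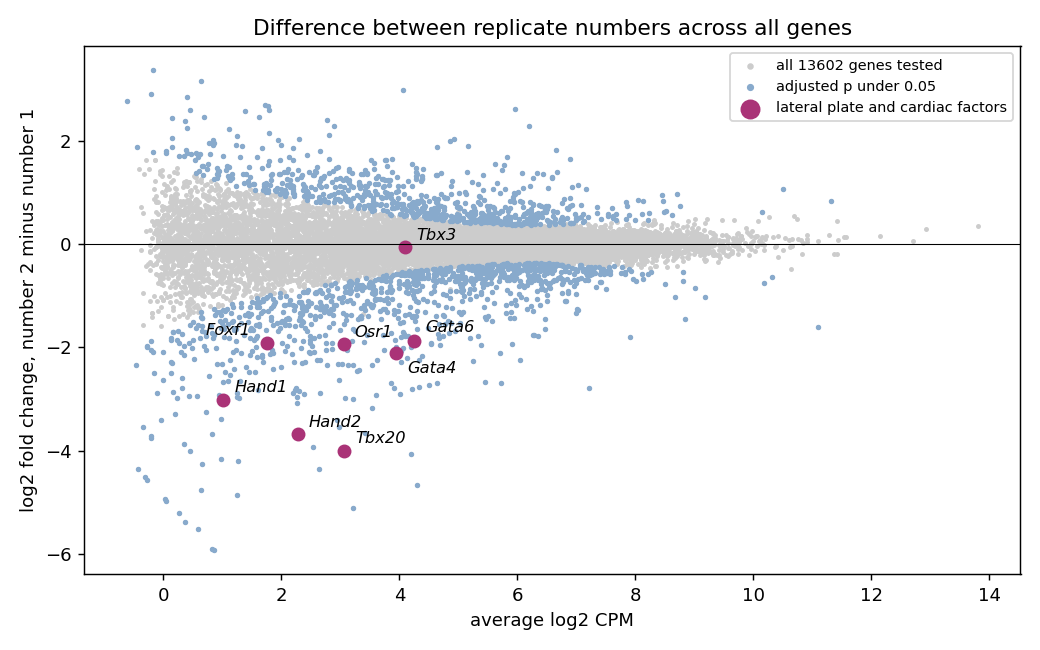
Log2 fold change of number 2 against number 1 against the average log2 CPM of 13602 genes, with genes past an adjusted p of 0.05 in blue and the 8 lateral plate and cardiac factors in purple. Tbx20 and Hand2 lie at -4.00 and -3.67, below most genes of like average level, and Tbx3 lies at -0.06.

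The test of the numbers had 1 residual degree of freedom, and its estimate of the spread was shared over genes with a median of infinite prior degrees of freedom, so that the calls rest on a spread common to all genes. With the number as the only term 4 of the 7 calls were made, and Hand1 (adjusted p = 0.361), Osr1 (0.416) and Foxf1 (0.0522) missed 0.05. Without dTAG-13 replicate 1 or dTAG-13 replicate 2 the values of Hand1 were -7.12 and -7.13, fitted against a library at 0 counts and thus no bound, and those of Hand2 were -4.68 and -4.69, beyond Tbx20 at -4.28 and -4.29.

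The comparison of dTAG-13 with untreated asked which of these genes differ once the tagged ZEB2 protein is degraded. In this test none of the 8 genes passed, and 0 of 13602 genes (0%) did. At an unadjusted p under 0.05 there were 479 genes (3.52%), of which Tbx3 was 1, and DESeq2 on the same counts called 40 genes and none of these 8 (Hand1 had no adjusted p there). The estimates were nevertheless positive in 7 of 8 genes, with a median log2 fold change of 0.71 against 0.00404 over all genes. In the same 7 genes dTAG-13 was above untreated within number 1 and within number 2, where 27.7% of all genes were higher and 23.9% lower in both numbers. Because the set was chosen with earlier results of these data known, these contrasts with all genes are a description too. The spread between the numbers is part of the error of this test, and the SE was at least 0.87 for every gene but Tbx3. The calls depended on this choice. With the number as a further term, 636 of 13602 genes passed, and 4 of the 8 did (Hand1, Osr1, Tbx3 and Gata4). No label pairs the libraries by number, and the p-values below are those of the fit with the group only. The comparisons of the numbers and of dTAG-13 use the same 4 libraries.

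Tbx3 was the only 1 of the 8 with both dTAG-13 libraries above both untreated libraries, a pattern seen in 14.4% of all genes. Its group means were 11.7 ± 0.00481 CPM without and 22.1 ± 1.15 CPM with dTAG-13 (SD, n = 2 each). Counting error alone gave exact Poisson 95% intervals of 9.98 to 13.7 and 9.83 to 13.9 CPM in untreated replicates 1 and 2. The small untreated SD is thus no measure of reproducibility. The log2 fold change was 0.91 ± 0.20 with an unadjusted p of 0.00320 and an adjusted p of 0.774 by edgeR. The ratio of dTAG-13 to untreated was 1.95 in number 1 (1.60 to 2.39) and 1.81 in number 2 (1.46 to 2.26). Leaving out any 1 library gave log2 values of 0.86 to 0.95.

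Hand1 and Osr1 had the largest estimates over all 4 libraries, and without dTAG-13 replicate 1 these were 0.20 and 0.30, below that of Tbx3 at 0.86. Hand1 was 3.58-fold higher with dTAG-13 in number 1 (2.10 to 6.35, from 60 and 19 counts). In number 2 it had 10 counts against 0, which is 3.18-fold against a level of 3 counts and not a lower bound. Its group means were 0.716 ± 1.01 CPM without and 2.98 ± 3.02 CPM with dTAG-13, and the 2 groups overlapped, since untreated replicate 1 was above dTAG-13 replicate 2. The fitted log2 fold change was 1.99 ± 1.54 (adjusted p = 1.00). Osr1 was 1.99-fold higher in number 1 (1.57 to 2.54) and 4.84-fold higher in number 2 (2.704 to 9.30). Its group means of 4.84 ± 5.08 and 11.4 ± 7.62 CPM overlapped in the same way, and its log2 fold change was 1.22 ± 1.04 (adjusted p = 1.00).

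Gata4 was 1.45-fold (1.23 to 1.71) and 1.85-fold (1.28 to 2.697) higher with dTAG-13 in numbers 1 and 2, and Gata6 was 1.29-fold (1.11 to 1.49) and 1.36-fold (1.01 to 1.85) higher. These intervals lie above 1, yet they compare single libraries and hold no spread between cultures. The log2 fold changes over the groups were 0.59 ± 1.10 and 0.38 ± 0.98. Hand2 was 1.43-fold higher in number 1 (1.08 to 1.90), and 4.14-fold higher in number 2 on 13 against 3 counts (1.14 to 22.6). Foxf1 was 1.79-fold higher in number 1 (1.23 to 2.63) and 1.74-fold higher in number 2, where the interval of 0.793 to 4.01 includes 1. Tbx20 had ratios of 0.954 (0.776 to 1.17) and 1.38 (0.545 to 3.65), both with intervals that include 1, and a log2 fold change of -0.05 ± 1.83. All of these had an adjusted p of 1.00.

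The sign of the group estimate turned with single libraries. Leaving out 1 library left its group with 1 number only, so the difference between numbers entered the estimates that follow. Within each number, Hand2, Gata4, Gata6 and Foxf1 had ratios of dTAG-13 to untreated above 1. Without dTAG-13 replicate 1 the log2 fold changes of Hand2, Gata4, Gata6 and Foxf1 were -1.74, -0.69, -0.82 and -0.45, without untreated replicate 2 those of Hand2, Gata4 and Gata6 were -0.33, -0.13 and -0.28, and Tbx20 turned positive when untreated replicate 1 (3.30) or dTAG-13 replicate 2 (0.82) was left out.

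**Figure D4:**
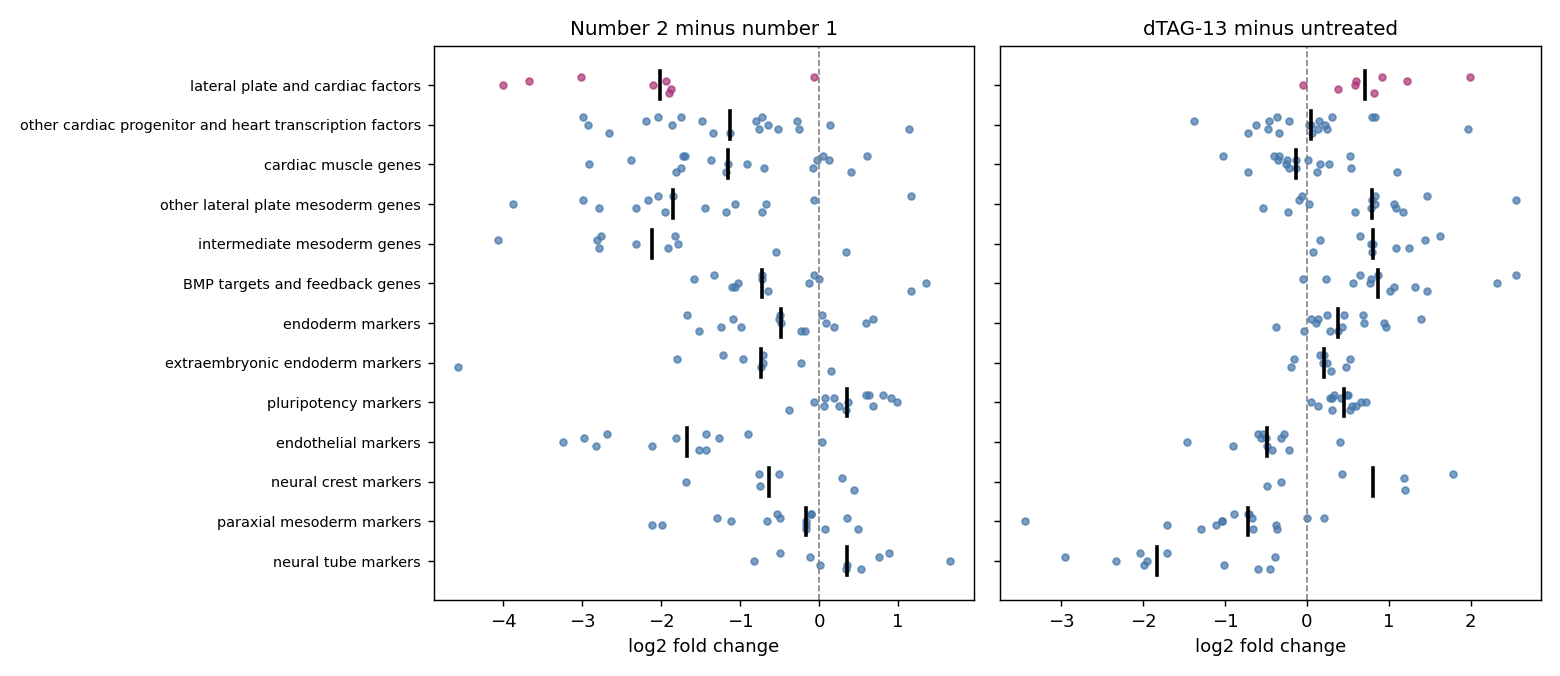
Log2 fold changes of single genes (points) in the 10-gene set and 12 further lists, between replicate numbers (left) and between dTAG-13 and untreated (right), with black bars for the medians and a dashed line for the median of all genes tested. The set has a median of -2.02 on the left and 0.71 on the right, and the neural tube list has 0.35 and -1.83.

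In the lists of related genes 0 members passed in the dTAG-13 comparison. Of 13 BMP targets 12 were higher with dTAG-13 within both numbers, with a median log2 fold change of 0.87, and 4 had an unadjusted p under 0.05, all higher. Among all 13602 genes tested, 27.7% were higher within both numbers, and 312 genes were higher at an unadjusted p under 0.05 by edgeR. Msx2, a homeobox target of BMP, was at 2.26 and 1.16 CPM without and at 9.04 and 11.3 CPM with dTAG-13 (2.55 ± 0.43, adjusted p = 0.774). Smad6, an inhibitor in the BMP pathway, had 11.5 and 6.41 CPM without and 21.2 and 15.1 CPM with dTAG-13. Other lateral plate genes were higher within both numbers in 11 of 15 and had a median of 0.80, and intermediate mesoderm genes were so in 9 of 10 with a median of 0.80. The lateral plate list shares genes with the BMP and intermediate mesoderm lists, so their counts are not independent. Bmp4, which encodes a ligand made by lateral plate and is in the lateral plate list, was at 8.89 and 3.83 CPM without and at 19.9 and 9.001 CPM with dTAG-13.

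Factors of cardiac progenitors and heart muscle genes did not share this direction. Of 19 such factors 6 were higher and 5 lower within both numbers (median 0.05), and of 17 muscle genes 3 were higher and 5 lower (median -0.14). Irx4, a ventricular homeobox gene, was at 1.13 and 1.60 CPM without and at 2.82 and 7.90 CPM with dTAG-13. Tbx18, a T-box gene of the epicardium and of somites, was at 5.05 and 2.94 CPM without and at 1.96 and 1.10 CPM with dTAG-13. Neither passed over all genes.

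Levels of markers of other tissues also differed between dTAG-13 and untreated libraries, with no single marker called in the fit with the group only. Among all genes tested, 27.7% were higher and 23.9% lower within both numbers. Paraxial mesoderm markers were lower within both numbers in 13 of 15 (median -0.72), with sums of 580 and 453 CPM without and 411 and 261 CPM with dTAG-13. Neural tube markers were lower within both numbers in 10 of 10 (median -1.83), with sums of 220 and 378 CPM without and 149 and 202 CPM with dTAG-13. Endoderm markers were higher within both numbers in 11 of 15 (median 0.38), pluripotency markers in 12 of 14 (median 0.45) and extraembryonic endoderm markers in 6 of 9 (median 0.21). Endothelial markers were lower within both numbers in 8 of 12 (median -0.49). Their sum was lower with dTAG-13 in number 1 (226 CPM without, 174 CPM with) but not in number 2 (63.5 and 67.8 CPM). Neural crest markers were higher within both numbers in 3 of 6 (median 0.81). Their part in the values of the 8 genes was not tested.

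**Figure D5:**
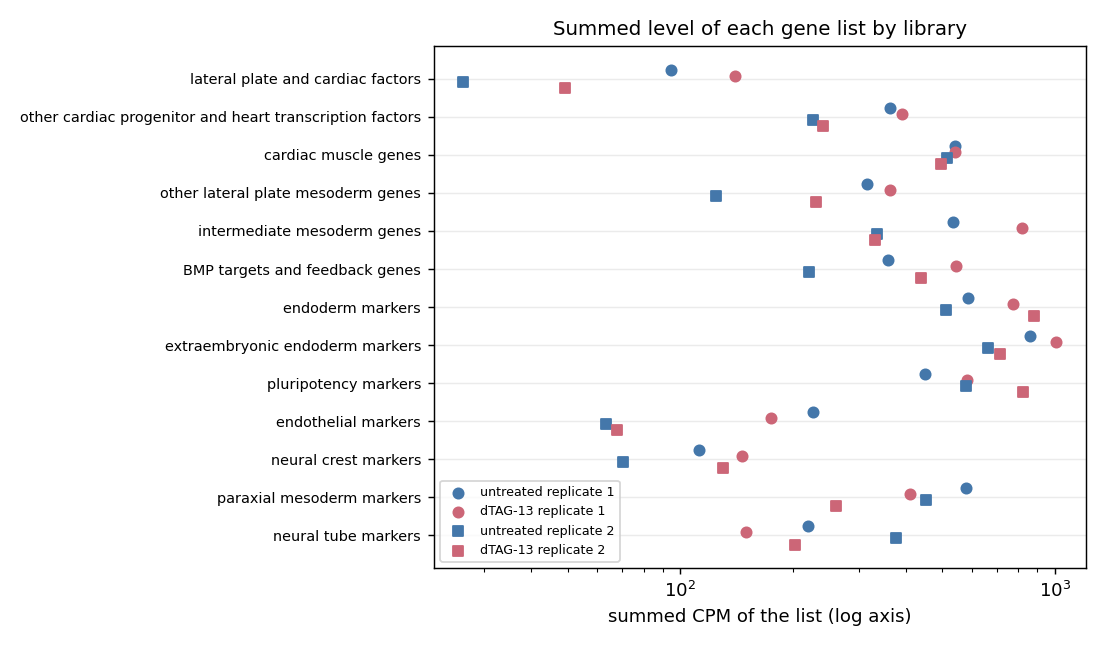
Summed CPM (log axis) of the 10-gene set and 12 further lists in each library, with circles for number 1, squares for number 2, blue for untreated and red for dTAG-13. The 10 genes sum to 94.6 and 26.3 CPM in untreated replicates 1 and 2 and to 140 and 49.3 CPM in dTAG-13 replicates 1 and 2.

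Levels were compared between genes after division by exon length, taken from GENCODE M21, which may differ from the annotation used for counting. In untreated replicate 1 the highest level was that of Gata4, 5.17 CPM per kb of exon, followed by Osr1 (4.08), Gata6 (3.98) and Hand2 (3.01), and Tbx3 was the fifth at 1.77. In untreated replicate 2 Tbx3 was the highest at the same 1.77 CPM per kb, followed by Gata6 and Gata4, both at 1.05, and Hand2 was at 0.114. With dTAG-13 Osr1 (8.13) and Gata4 (7.49) led in replicate 1, and Tbx3 (3.22) and Osr1 (2.92) led in replicate 2. The order within a group thus changed between its 2 libraries, and neighbours such as Osr1 and Gata6 cannot be ranked over the spread between them. Nkx2-5 and Tbx5 were below 0.25 CPM per kb in all 4 libraries.

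For each gene the closest profiles among the tested genes whose mean log2 CPM was 1 or more were found, as the root mean square difference of centred log2 CPM over the 4 libraries. The nearest to Hand1 were Gdnf (0.23), Gata3 (0.47) and Osr1 (0.50), and the nearest to Hand2 were Rgs5 (0.21), Pga5 (0.34) and Pax8 (0.40). Gata4 was closest to Pdlim3 (0.13), Eya1 (0.14) and Cubn (0.19), and Gata6 to Sox5 (0.067), Cubn (0.078) and Shisa2 (0.096). Foxf1 was closest to Lhx1 (0.017), Hoxd8 (0.057) and Eomes (0.061). Lhx1 was at 90.3 and 28.0 CPM without and at 163 and 44.8 CPM with dTAG-13. Osr1 was closest to Tbx2 (0.19), Ikzf3 (0.22) and Pdlim3 (0.39), and Tbx20 to Rgs5 (0.28), Bace2 (0.28) and Ebf2 (0.37). Tbx3 had other neighbours, namely Gbp2b (0.062), Ccdc68 (0.067) and the desmosomal cadherin gene Dsc2 (0.10), which was at 55.4 and 62.1 CPM without and at 105 and 115 CPM with dTAG-13. With 4 libraries these values are a description.

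Exons of Hand2, Gata6 and Tbx3 overlap an antisense or opposite-strand RNA gene in GENCODE M21 (Hand2os1, 1010001N08Rik and Tbx3os1), and an exon of Foxf1 overlaps a predicted miRNA gene (Gm27530). Whether the counting used strand is not stated in the sources, so reads of these pairs cannot be told apart. The 4 neighbours are not listed under these symbols among the 24831 genes, and no counts of them could be given.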

How the data were processed

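The authors deposited 1 table of raw whole-number counts per gene symbol for each of 4 libraries, with no normalization. Per the submitters' processing notes, which give no roles, the tools included DESeq2 1.34.0, HTSeq 0.12.4, STAR 2.7.6a and fastp 0.20.1, with GRCm38.p6 or mm10 as build. Per the labels' protocols the libraries were made from total RNA with ribosomal depletion. The annotation and the use of strand are not stated in the sources used. Summary rows that name no gene entered neither library sizes nor tests, and reads outside genes made up 24.1% to 35.7%.

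Groups and numbers were taken from the titles. The filter was filterByExpr by group, at a minimum count of 10 and a minimum total of 15, and TMM factors, estimateDisp, robust glmQLFit and two-sided glmQLFTest of edgeR 4.0.16 in R 4.3.3 were run on all 13602 genes kept, with Benjamini-Hochberg adjustment over all of them and a threshold of 0.05. dTAG-13 was compared with untreated with the group as the only term, and number 2 with number 1 with the group as a further term. Each SE was derived from the estimate and its F statistic, as the absolute estimate over the root of F. Differences between single libraries use log2 CPM with a prior count of 2; ratios use counts with exact 95% binomial intervals.

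On simulated data with 100 genes changed 2-fold and 100 changed 4-fold, the dTAG-13 test recovered 15% and 73% of these (13482 genes tested) when the observed difference between numbers was included, with 0 false calls, and the number test recovered 78% and 100% (13432 genes tested), with 9 false calls. The simulated spread came from the fit with group and number as terms. These rates thus cannot show how the tests behave if libraries vary more than that fit estimates. The 10 genes and the further lists were chosen with earlier results of these data known. Named are all 10 genes, Zeb2, and in each further list up to 3 genes of smallest unadjusted p in either comparison whose mean log2 CPM was 0 or more; Tbx6, Tnnt2, Myl2, Ttn, Atp2a2 and the genes at or near 0 were picked after their values were seen. Alternatives were RLE and upper quartile factors, no filter, a filter of at least 50 counts in 2 libraries, DESeq2 1.42.0, omission of mitochondrial and the 50 highest genes, other terms, and leaving out each library. All list symbols were matched directly. Coordinates are those of RefSeq in GRCm38.p6.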

Additional observations from a re-analysis of the deposited data

How the results depend on the processing

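With other normalization factors, no filter, a reduced gene table or DESeq2, 7 of the 8 genes were called between numbers and 0 with dTAG-13. The filter of at least 50 counts removed Hand1 and Foxf1 and left 5 calls between numbers. Over all genes DESeq2 called 40 with dTAG-13 where edgeR called 0, and 652 between numbers where edgeR called 1729. With the number as the only term, 506 genes and 4 of the 8 were called between numbers. Same-numbered libraries deviated from their group means together (Pearson's r = 0.63 across genes, which are not independent, for 2 pairs), but no label pairs them. With the replicate block, 636 genes were called with dTAG-13, 395 higher and 241 lower, and 4 of the 8 genes: Hand1 (2.14), Osr1 (1.41), Tbx3 (0.91) and Gata4 (0.66). Tbx20 was then at 0.031, above 0. Leaving out 1 library called 0 genes with dTAG-13, and the lone library was assumed to vary like the other group. The log2 fold changes with dTAG-13 then ranged from 0.20 to 8.11 for Hand1 (the upper value against a library at 0 counts), 0.30 to 3.17 for Osr1, -1.74 to 4.33 for Hand2, -0.69 to 2.15 for Gata4, -0.82 to 1.62 for Gata6, -0.45 to 2.04 for Foxf1 and -2.90 to 3.30 for Tbx20, and the median of the 8 from -0.57 to 2.66. The difference between numbers entered these estimates, because 1 group was left with 1 number. Its share in these values was not tested. Between numbers, where no test is left, Tbx3 ranged from -0.11 to 0.00024, Hand1 from -7.13 to -2.58, Hand2 from -4.69 to -3.19, Osr1 from -2.76 to -1.48 and Tbx20 from -4.29 to -3.75, and the other 3 genes stayed below 0. Depth limits Hand1, Hand2, Nkx2-5 and Tbx5, which had 0 to 4 counts in untreated replicate 2 or in most libraries.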
